A study of Mus musculus with 15 samples.

Results

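The genes described here are readthrough genes, which gene annotations list as a joined name of 2 neighbouring genes (RNF103-CHMP3, for example) because transcripts run from one gene into the next. They were chosen by name and by depth: a name with 1 hyphen whose parts are both names in the deposited tables, and raw counts that sum to at least 75 over the 15 libraries. Of 56967 names, 124 had such a form, and 28 of these reached the minimum and are the members. Of the other 96, 32 were at 0 counts and 64 had 1 to 74 counts. The values that chose the members are thus sums over all groups, and they are given only as a description: just inside the minimum stood TEN1-CDK3 with 79 counts and SENP3-EIF4A1 with 80, and just outside it NME1-NME2 with 65 and ZNF559-ZNF177 with 47.

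The study sequenced poly(A) RNA of a cell line labelled MDA-MB-468, an established human line from an invasive breast carcinoma, after treatment with short hairpin RNAs. The 15 libraries form 5 groups of 3: a control hairpin (NC), 2 sets against SHCBP1 (shSHCBP1_1 and shSHCBP1_2) and 2 sets against TMEM45A, called set 4 and set 2 after the numbers in their column names. NC and the SHCBP1 libraries stand in one table and the TMEM45A libraries in another with no control of its own, so that in every comparison of shTMEM45A with NC the hairpin and the table cannot be told apart. The labels give the same line for all groups. The labels give no time, vector or clone. They do not say that replicates were grown apart, so the p-values here rest on library-to-library spread that can be technical. The labels name mouse as the organism, but the gene symbols of both tables are human.

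A transcript normally ends where its RNA is cut behind a polyadenylation signal, after which the polymerase leaves the DNA. When the cut is missed, the polymerase can go on into the next gene on the same strand, and splicing can join exons of both genes into one RNA. Some such RNAs keep an open reading frame for a fused protein, and others carry an early stop codon, a feature by which nonsense-mediated decay recognises transcripts for removal. A readthrough row shares exons with the rows of its neighbours. How the counter assigned reads from shared exons is not given in the sources used here, and the library kit does not mark strand, so the counts of a readthrough row and of its part genes are uncertain against each other.

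Library totals ran from 13780294 to 16484000 counts. TMEM45A was lower in its own libraries, by -0.52 on the log2 scale (SE 0.09, edgeR adjusted p = 3.32e-06), at 17.8 CPM in set 4 and 19.4 in set 2 against 26.6 ± 2.09 (SD, n = 3) in NC. SHCBP1 was not lower in the libraries labelled shSHCBP1, where its level differed from NC by 0.05 (SE 0.06, adjusted p = 0.596). Of 18 listed markers of breast epithelium and basal-like lines, 8 were over 1 CPM in NC and 10 in each shTMEM45A set. KRT5, KRT6A, KRT6B and KRT16 were at 0 in all groups. Of 8 neural or kidney line markers, 5 were over 1 CPM in NC, among them the neurofilament genes NEFL and NEFM at 176 and 255 CPM. CRABP1 of that list was at 0 in all groups. The summed level of the 18 was 167 to 173 CPM in NC, 181 to 195 in the shSHCBP1 libraries and 333 to 384 in the shTMEM45A libraries, and that of 8 neural or kidney line markers was 489 to 502, 396 to 470 and 191 to 242. Both sums move with the shTMEM45A comparison, and their part in its results was not tested. In RNA from whole cultures, fewer cells that express a gene and less RNA per cell cannot be told apart.

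Readthrough rows took a small part of each library, between 0.00191% and 0.00774% of all counts. The 28 members together had 1074, 1093 and 1074 counts in the NC libraries, 1150, 926 and 982 in shSHCBP1_1, 931, 1025 and 943 in shSHCBP1_2, 391, 344 and 306 in set 4, and 374, 361 and 300 in set 2. Scaled to library totals (CPM) this came to 74.6 to 77.4 in NC, 66.0 to 72.7 in the libraries labelled shSHCBP1, and 19.1 to 23.9 in shTMEM45A. The 3 ranges do not overlap, and the shTMEM45A libraries stand far below the rest. This sum describes the chosen rows, since the count minimum could be reached through the other groups alone. Much of the NC sum of 3241 came from PDXDC2P-NPIPB14P (570), JMJD7-PLA2G4B (400), RTEL1-TNFRSF6B (388) and IQCJ-SCHIP1 (300), all lower in shTMEM45A. ARMCX5-GPRASP2 had 207 counts in NC, 187 in set 4 and 215 in set 2, and 3 members were called higher in shTMEM45A. The 56 part genes together had 1189 to 1218 CPM in NC, 1117 to 1152 in the shSHCBP1 libraries and 869 to 963 in shTMEM45A, in the same order but closer to each other.

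The median member stood at 0.894 CPM in NC, 0.859 in shSHCBP1_1, 0.933 in shSHCBP1_2, 0.318 in set 4 and 0.407 in set 2. CPM of single genes are scaled by TMM, edgeR's correction for library composition. The highest member in NC was PDXDC2P-NPIPB14P at 13.2 CPM, whereas in both shTMEM45A sets it was ARMCX5-GPRASP2, at 4.51 CPM in set 4 and 5.16 in set 2. No member was at 0 in any NC or shSHCBP1 library, while 8 were at 0 in at least 1 library of set 4 and 9 in at least 1 of set 2. The share of all genes at 0 was not taken, and the member rule allows zeros where other groups supply the counts. These numbers of zeros are therefore a description. CHKB-CPT1B was at 0 in all 6 shTMEM45A libraries.

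**Figure D1:**
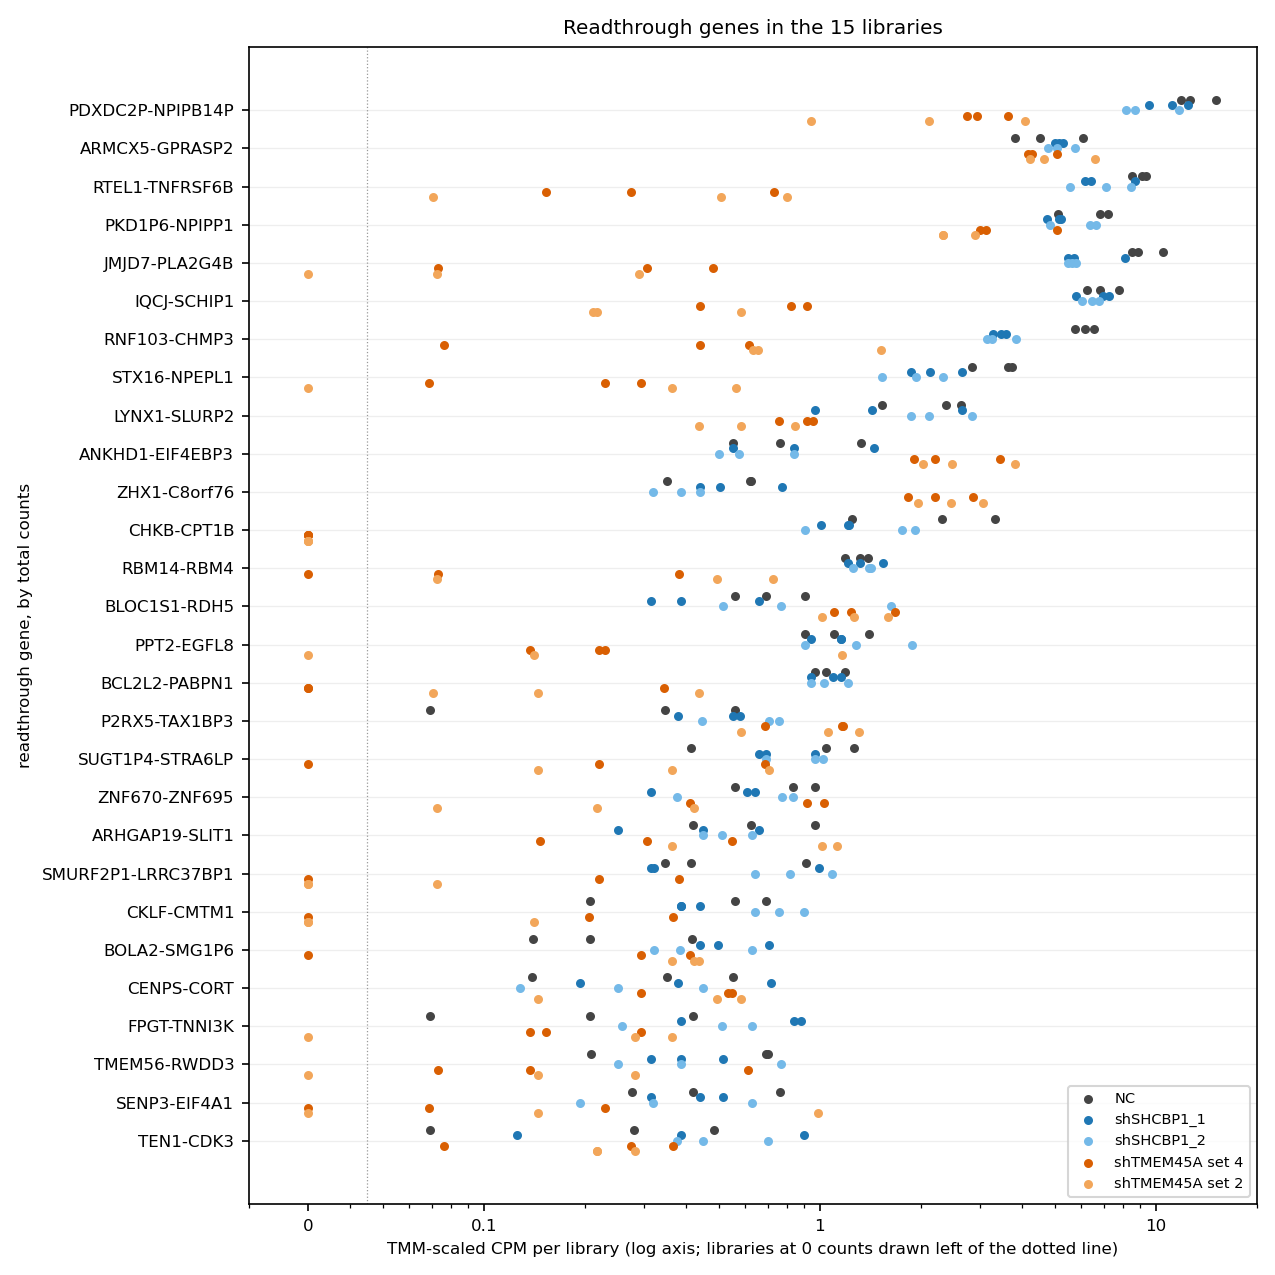
TMM-scaled CPM (x axis, log scale) of the 28 readthrough genes (y axis, by total counts) in the 15 libraries, one point per library, with 0 counts drawn left of the dotted line. The shTMEM45A points lie left of the NC points for most of the upper rows, at 0 for CHKB-CPT1B, and right of them for ANKHD1-EIF4EBP3 and ZHX1-C8orf76.

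Against NC, the libraries labelled shSHCBP1 showed lower calls only among the members. A call is an adjusted p under 0.05 in edgeR's quasi-likelihood test over all 19051 genes tested, of which 25 are members (BOLA2-SMG1P6, CENPS-CORT and TEN1-CDK3 did not pass the filter on low counts). In shSHCBP1_1, 0 of 25 were called higher (background 9.34% of all genes tested) and 1 lower (background 10.5%). In shSHCBP1_2, 0 were higher (background 15.6%) and 2 lower (background 15.4%). Over the mean of both sets, 0 were higher and 2 lower, against backgrounds of 15.2% and 15.9% of all genes tested, and of 10.4% and 5% among the 7919 genes within the members' range of mean log2 CPM. These counts rest on few calls: on leaving out a library in turn the total over the mean was 1 to 4, and 7 (1 higher and 6 lower of 21 tested) with the shTMEM45A libraries left out of the fit. At an unadjusted p under 0.05 the mean of both sets had 5 members, and DESeq2 called 3. The members' median log2 change was -0.19, beside 0.01 over all genes tested. It was -0.11 over the 24 upstream part genes tested and -0.14 over the 21 downstream ones.

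Against NC, shTMEM45A had 3 of the 25 members called higher and 15 lower over the mean of both sets. The background was 37.3% higher and 41.3% lower over all genes tested, and 33% higher and 33.8% lower within the members' range of levels. In set 4, 3 were higher (background 35.6%) and 14 lower (background 38.9%). In set 2, 3 were higher (background 36.1%) and 16 lower (background 39.8%). The median log2 change of the members tested was -1.55, beside -0.05 over all genes tested, -0.45 over the 24 upstream part genes tested and -0.50 over the 21 downstream ones. Among the parts, 7 of 24 upstream genes were called higher and 12 lower, and 8 of 21 downstream genes higher and 12 lower. A member low in shTMEM45A could pass the minimum of 75 and the filter through its counts in the other 3 groups. Many of those called lower had 0 shTMEM45A libraries past the filter's count minimum. These were JMJD7-PLA2G4B, STX16-NPEPL1, CHKB-CPT1B, RBM14-RBM4, BCL2L2-PABPN1, SUGT1P4-STRA6LP, SMURF2P1-LRRC37BP1 and CKLF-CMTM1. RTEL1-TNFRSF6B, RNF103-CHMP3 and PPT2-EGFL8, also called lower, had 1 such library, in set 2. The falls, ratios and p-values of all these rows in shTMEM45A are thus descriptions of rows kept for the groups where they are high. In turn, ZHX1-C8orf76 passed the filter through its shTMEM45A counts. The counts and medians here thus describe the genes that passed and do not carry over to readthrough genes at large.

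Between the sets of one target, no member was called. For shSHCBP1_2 against shSHCBP1_1 the edgeR test called 0 of 25 in either direction (background 0.499% higher and 0.336% lower), with 1 at an unadjusted p under 0.05 and 0 by DESeq2. For set 2 against set 4 it called 0 (background 1.95% higher and 3.32% lower), with 5 at an unadjusted p under 0.05 and 0 by DESeq2. Leaving out the first library of set 2 gave 1 call there.

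RNF103-CHMP3 was lower than in NC in all 4 hairpin sets, those labelled shSHCBP1 included. RNF103 is an endoplasmic reticulum ubiquitin ligase, and CHMP3 is a subunit of the ESCRT-III complex that cuts membrane necks. The joined row had 94, 82 and 89 counts in NC, 65, 51 and 55 in shSHCBP1_1, 49, 61 and 51 in shSHCBP1_2, 9, 6 and 1 in set 4, and 21, 9 and 9 in set 2. NC, shSHCBP1 and shTMEM45A do not overlap in these counts. The log2 change was -0.83 in shSHCBP1_1 (SE 0.26, adjusted p = 0.0212) and -0.84 in shSHCBP1_2 (SE 0.26, adjusted p = 0.013), both in edgeR. For shTMEM45A it was -3.33 (SE 0.27, adjusted p = 1.74e-12). Both comparisons share the NC libraries. The part genes moved less: RNF103 differed by 0.18 in shSHCBP1 (adjusted p = 0.199) and rose by 0.44 in shTMEM45A (adjusted p = 0.000498), while CHMP3 fell by 0.31 (adjusted p = 0.0107) and by 0.67 (adjusted p = 2.89e-07). The readthrough row took 12.2% ± 1.43 (SD, n = 3) of the counts of its locus in NC, 7.51% ± 0.75 in shSHCBP1_1, 7.75% ± 1.19 in shSHCBP1_2, 0.965% ± 0.723 in set 4 and 2.27% ± 1.21 in set 2.

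Library size cancels in the ratio of a readthrough row to the sum of its parts, taken per library as log2((readthrough + 0.5)/(parts + 0.5)). For the 16 members named by rule, this ratio was compared between the 6 libraries of each target and the 3 of NC by an exact two-sided permutation test, 32 tests in all, with p-values left unadjusted. The smallest p this design allows is 0.0238, which is reached where the groups do not overlap. The test treats the libraries of both hairpin sets of a target as alike, so its p does not cover spread between hairpins. For RNF103-CHMP3 the ratio was lower than in NC by -0.75 in shSHCBP1 and by -3.40 in shTMEM45A, each at that smallest p of the exact test.

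STX16-NPEPL1 had a similar order of levels. STX16 is a SNARE protein of the trans-Golgi network, and NPEPL1 an aminopeptidase-like protein. Its counts were 41, 52 and 54 in NC, 34, 33 and 42 in shSHCBP1_1, 30, 37 and 24 in shSHCBP1_2, 1, 4 and 3 in set 4, and 0, 8 and 5 in set 2. The shSHCBP1 counts meet those of NC at their upper end, while in CPM the highest shSHCBP1 library (2.64) lies under the lowest of NC (2.85). The log2 change in shSHCBP1 was -0.72 and missed the threshold (SE 0.30, edgeR adjusted p = 0.0669). In shTMEM45A the row fell by 3.75 on the log2 scale (SE 0.39, adjusted p = 4.56e-10), STX16 fell by 0.80 and NPEPL1 rose by 0.84 (adjusted p = 1.27e-07). The ratio to the parts was lower by -0.56 in shSHCBP1 (exact p = 0.0476) and by -3.38 in shTMEM45A (exact p = 0.0238). The joined row had 0 shTMEM45A libraries past the filter's count minimum. Its fall, ratio and p-values there are therefore descriptions of a row kept for the groups where it is high.

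A group of 7 loci gave most of their counts to the readthrough row. As the row shares exons with its parts and no gene lengths were used, these are shares of counts and not of transcripts. Pooled over the 3 NC libraries, the share was over 50% for PDXDC2P-NPIPB14P, IQCJ-SCHIP1, JMJD7-PLA2G4B, SUGT1P4-STRA6LP, RTEL1-TNFRSF6B, LYNX1-SLURP2 and TEN1-CDK3, between 10% and 50% for 8 members and under 10% for 13. The background in shTMEM45A is 37.3% higher and 41.3% lower over all genes tested, and 33% and 33.8% within the members' range of levels. Of the 6 tested members over 50%, 0 were called higher and 6 lower in shTMEM45A, with log2 changes of -5.57 to -1.37. Of the 7 tested between 10% and 50%, 2 were higher and 4 lower. Of the 12 tested under 10%, 1 was higher and 5 lower, the latter near the background. The NC counts that set these shares are also the baseline of the log2 changes. Of the members over 50%, JMJD7-PLA2G4B and SUGT1P4-STRA6LP had 0 shTMEM45A libraries past the filter's count minimum. The split by share is thus a description, and no effect of the share is read from it.

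**Figure D2:**
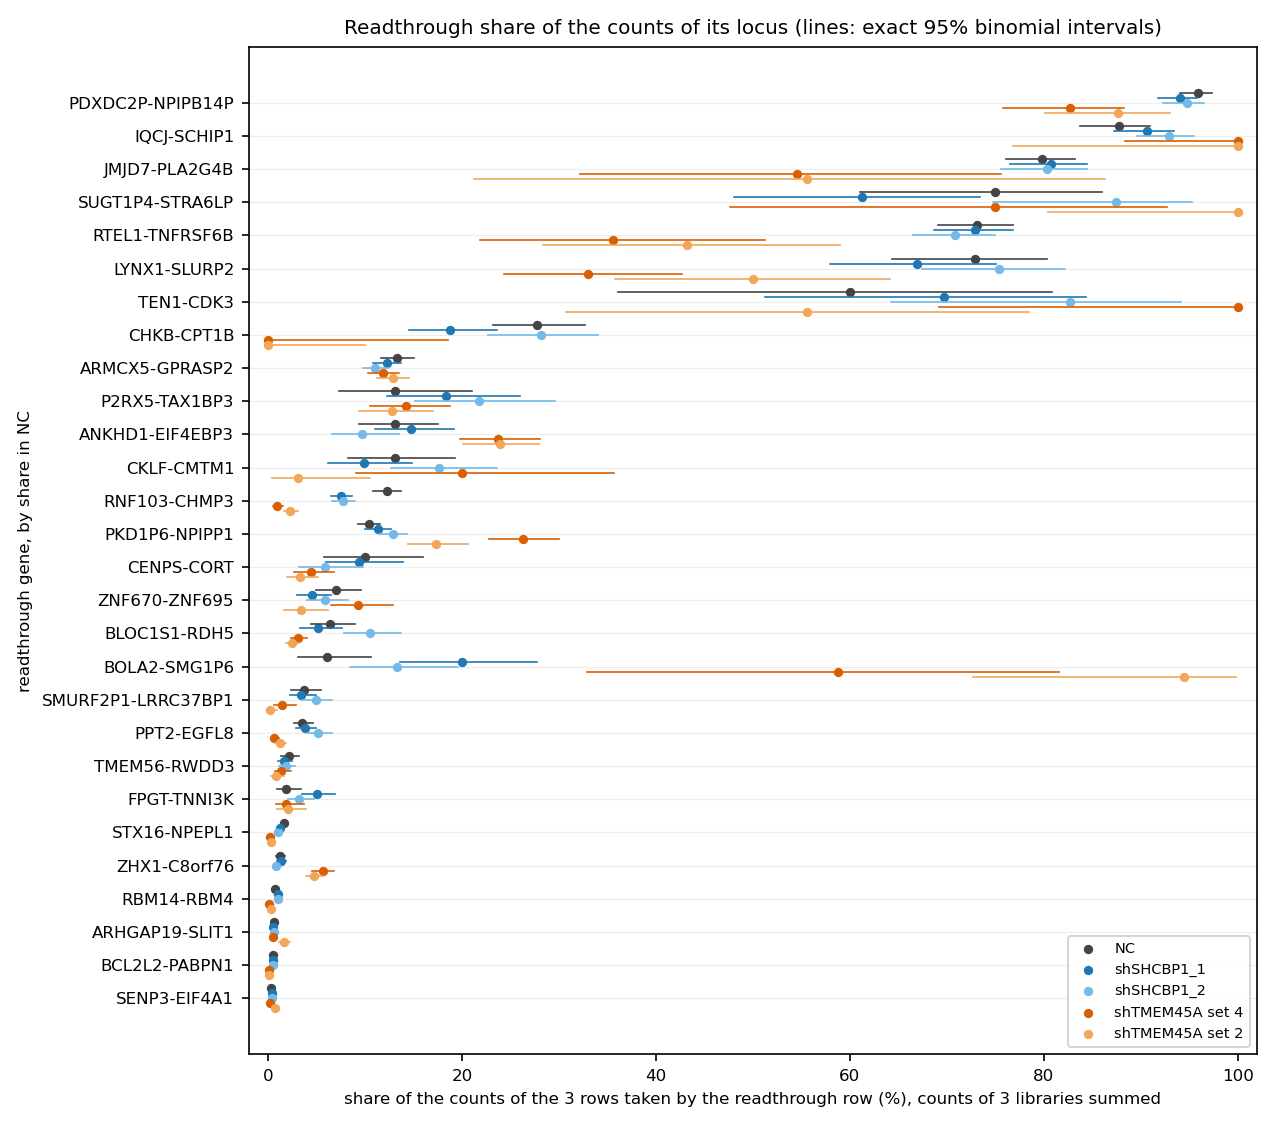
Share of the counts of the 3 rows of a locus that fell on the readthrough row (x axis, percent) for the 28 readthrough genes (y axis, by share in NC), counts of 3 libraries summed per group, with exact 95% binomial intervals that cover counting error only. RNF103-CHMP3 stands at 12.2% in NC, 7.53% and 7.72% in the shSHCBP1 sets, and 0.917% and 2.26% in sets 4 and 2 of shTMEM45A.

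PDXDC2P-NPIPB14P joins a decarboxylase-like pseudogene and a pseudogene of the NPIP family, and took 96.1% ± 1.27 (SD, n = 3) of the counts of its locus in NC. It had 171, 181 and 218 counts in NC, 226, 174 and 152 in shSHCBP1_1, 135, 186 and 128 in shSHCBP1_2, 53, 40 and 36 in set 4, and 56, 30 and 13 in set 2. The shSHCBP1 libraries overlap those of NC and all shTMEM45A libraries lie below. The log2 change was -2.28 in shTMEM45A (SE 0.20, adjusted p = 1.12e-11), while PDXDC2P, with 5 to 12 counts in NC, differed by -0.24 (adjusted p = 0.686) and NPIPB14P was at 0 in NC. Near-identical copies of the NPIP genes and their neighbours exist in the genome, so reads of this locus and of PKD1P6-NPIPP1 could be split among copies.

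RTEL1-TNFRSF6B joins RTEL1, a helicase that protects telomeres, and TNFRSF6B, a decoy receptor for the Fas ligand. Its counts were 131, 134 and 123 in NC, 112, 100 and 138 in shSHCBP1_1, 131, 113 and 87 in shSHCBP1_2, 4, 10 and 2 in set 4, and 11, 1 and 7 in set 2. RTEL1 alone had 46 to 51 counts in NC and 6 to 12 in shTMEM45A, and TNFRSF6B was at 0 in all 15 libraries. In shTMEM45A the joined row fell by 4.39 (SE 0.28, edgeR adjusted p = 3.98e-15) and RTEL1 by 2.34 (SE 0.27), so both fell, and the ratio of the joined row to its parts was lower by -2.33 (exact p = 0.0238).

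JMJD7-PLA2G4B joins JMJD7, a lysyl hydroxylase, and PLA2G4B, a cytosolic phospholipase A2. It had 151, 126 and 123 counts in NC, 147, 85 and 91 in shSHCBP1_1, 90, 87 and 88 in shSHCBP1_2, 7, 1 and 4 in set 4, and 4, 0 and 1 in set 2. All libraries of shSHCBP1 but 1 lie below NC. The row fell by 0.62 in shSHCBP1 (SE 0.19, adjusted p = 0.0112), a call that was lost without the first NC library (-0.52, adjusted p = 0.0971), and JMJD7 fell by 1.09 (adjusted p = 0.0338). Of the sets singly, shSHCBP1_2 passed the threshold (-0.72, adjusted p = 0.0131) and shSHCBP1_1 did not (-0.52, adjusted p = 0.0933), and they were not called apart from each other. In shTMEM45A the joined row fell by 5.57 (SE 0.30), from 400 counts in the 3 NC libraries to 17 in the 6 shTMEM45A libraries. There JMJD7 had 75 counts in NC and 1 in each set, a ratio to NC of 0.0122 in set 4 with a 95% counting interval of 0.000305 to 0.0702, and PLA2G4B fell by 2.18 (SE 0.63). The ratio of the joined row to its parts overlapped between NC and both targets (exact p = 0.667 for shSHCBP1 and 0.191 for shTMEM45A). As the joined row had 0 shTMEM45A libraries past the filter's count minimum, its fall there is a description.

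IQCJ-SCHIP1 joins IQCJ and SCHIP1, the latter a schwannomin-interacting protein known from the axon initial segment. Its counts were 90, 111 and 99 in NC, 126, 90 and 115 in shSHCBP1_1, 100, 96 and 106 in shSHCBP1_2, 12, 6 and 12 in set 4, and 3, 3 and 8 in set 2. It did not pass the threshold in shSHCBP1 (-0.09, SE 0.17) and fell by 3.79 in shTMEM45A (SE 0.23, adjusted p = 2.28e-15). SCHIP1 had 42 counts in NC and 0 in both shTMEM45A sets, at least 30.7-fold lower with a floor of 3 counts over the 6 libraries. IQCJ had 1 count in all 15 libraries together.

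LYNX1-SLURP2 joins 2 Ly6-type genes whose products modulate nicotinic receptors. It had 22, 34 and 38 counts in NC, 15 to 45 in the shSHCBP1 libraries, 11, 13 and 12 in set 4, and 6, 12 and 8 in set 2. The fall in shTMEM45A was 1.55 (SE 0.34, adjusted p = 0.000126), while LYNX1 differed by 0.38 (adjusted p = 0.448) and SLURP2 was at 0. That mean joins unlike sets, as LYNX1 had 17, 7 and 11 counts in NC, 23, 18 and 32 in set 4, and 14, 2 and 10 in set 2. SUGT1P4-STRA6LP, named here after its values were seen because neither part reached the test, was called lower over the mean of the shTMEM45A sets by -1.37 (SE 0.55, adjusted p = 0.0252) and in set 4 (adjusted p = 0.0359), not in set 2 (-1.14, adjusted p = 0.109). That call was lost without either of 2 NC libraries or without 1 library of either shTMEM45A set, with adjusted p of 0.0501 to 0.154. With 0 shTMEM45A libraries of SUGT1P4-STRA6LP past the filter's count minimum, the call is a description.

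CHKB-CPT1B joins choline kinase beta and CPT1B, the muscle form of the enzyme that takes fatty acids into mitochondria. Its counts were 48, 33 and 18 in NC, 22, 19 and 16 in shSHCBP1_1, 14, 28 and 30 in shSHCBP1_2, and 0 in each of the 6 shTMEM45A libraries. With a floor of 3 counts over the 6 libraries it was at least 72.4-fold lower in shTMEM45A than in NC. Both parts fell as well: CHKB by 2.72 (SE 0.40, adjusted p = 4.69e-07) from 26 to 38 counts in NC to 0 to 9, and CPT1B by 3.78 (SE 0.33, adjusted p = 1.17e-11) from 45 to 58 counts to 1 to 8. With CHKB at 0 to 9 counts, a share of 0% of the locus allows up to 18.5% in set 4 and 10.0% in set 2 by exact binomial intervals. The ratio to the parts was lower by -2.52 (exact p = 0.0238), a value that 2 in place of 0.5 as the added constant moved to -0.86 (exact p = 0.167). The fitted fold of this row depends on the prior count, and the row is the lowest member also at its bound, so the members' medians are the same either way. Because 0 shTMEM45A libraries passed the filter's count minimum, the fall and ratio of this row are descriptions.

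The part genes of a locus did not always move together. In shTMEM45A, of 19 loci with both parts tested, the parts were called in opposite directions in 10 and in the same direction in 6. The background of 37.3% of all genes tested called higher and 41.3% lower leaves room for both kinds of pair, and nothing particular to these loci is read from the counts. For shSHCBP1 the counts were 0 and 2. Among the 10, the readthrough row was called with the upstream part in 5 (PKD1P6-NPIPP1, STX16-NPEPL1, RBM14-RBM4, BCL2L2-PABPN1 and SMURF2P1-LRRC37BP1) and with the downstream part in 3 (RNF103-CHMP3, ZHX1-C8orf76 and PPT2-EGFL8). It missed the threshold in BLOC1S1-RDH5 and SENP3-EIF4A1. All 3 rows were called in the same direction in 3 loci, lower in JMJD7-PLA2G4B and CHKB-CPT1B and higher in P2RX5-TAX1BP3.

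**Figure D3:**
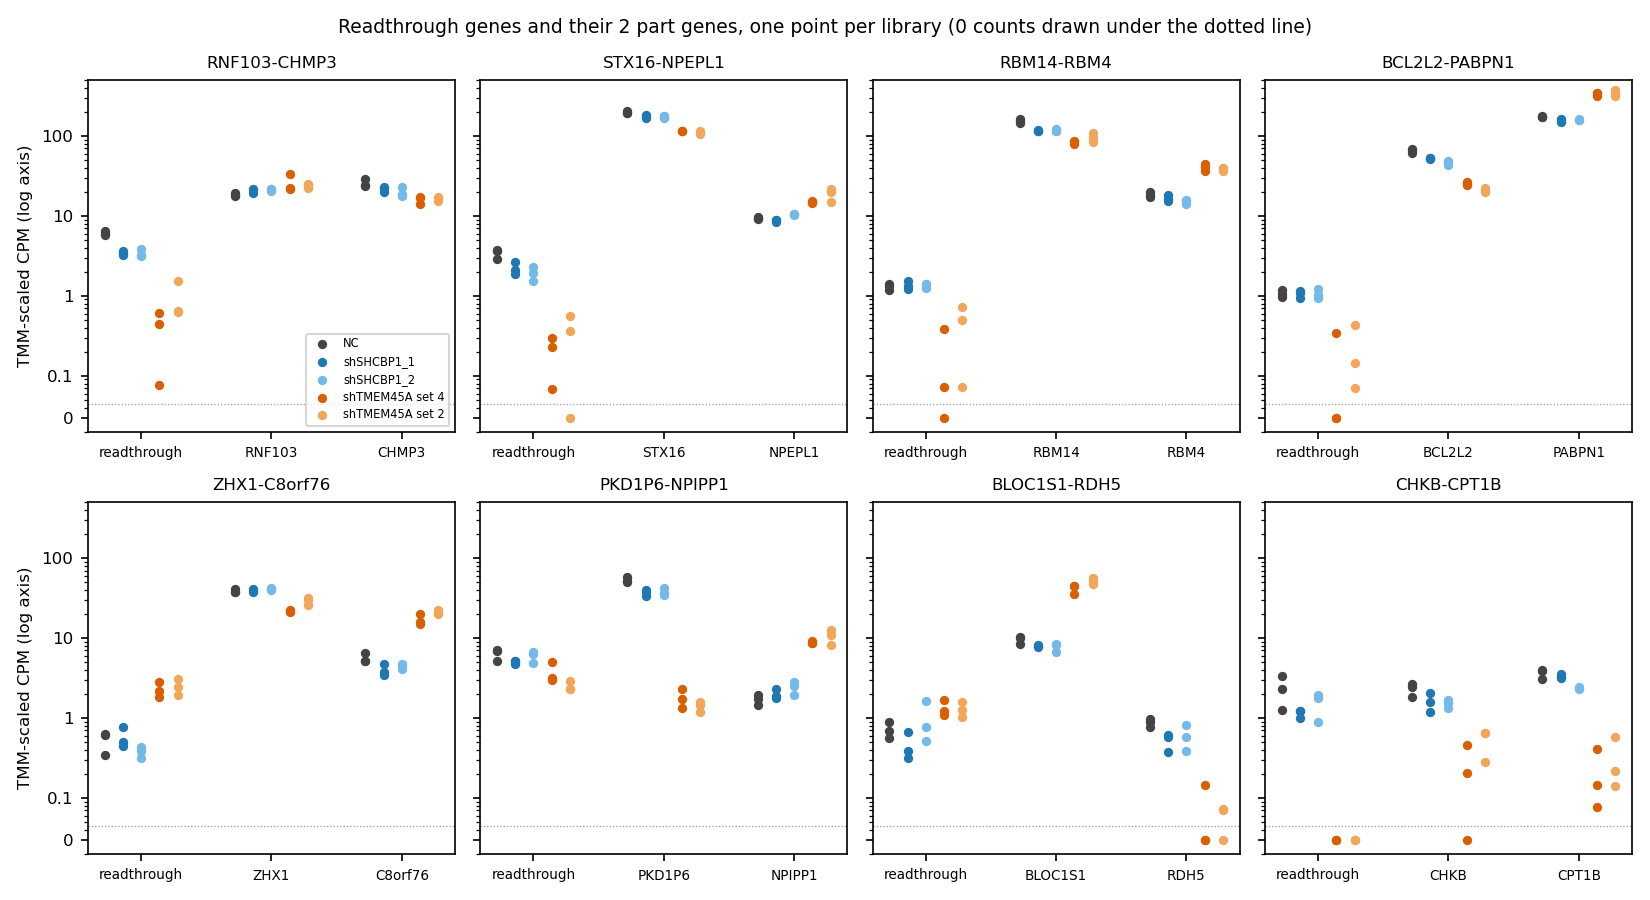
TMM-scaled CPM (y axis, log scale) of the readthrough row and its 2 part genes at 8 loci, one point per library, with 0 counts drawn under the dotted line. In shTMEM45A the readthrough row lies below NC at RNF103-CHMP3, STX16-NPEPL1, RBM14-RBM4 and BCL2L2-PABPN1 while one part lies above, and at ZHX1-C8orf76 the readthrough row and C8orf76 lie above while ZHX1 lies below.

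RBM14-RBM4 joins RBM14, a paraspeckle protein, and RBM4, a splicing regulator. Its counts were 20, 17 and 19 in NC, 22, 24 and 21 in shSHCBP1_1, 22, 20 and 22 in shSHCBP1_2, 0, 1 and 5 in set 4, and 1, 7 and 10 in set 2. In shTMEM45A the joined row fell by 2.32 (SE 0.50, edgeR adjusted p = 0.00011), RBM14 fell by 0.79 and RBM4 rose by 1.10 (adjusted p = 5.83e-13), from 251 to 281 counts to 477 to 607. In shSHCBP1 the joined row differed by 0.07 (adjusted p = 0.926) and RBM14 fell by 0.39 (adjusted p = 2.43e-06). This member was named for the shift of its ratio to the parts in shSHCBP1, 0.43 above NC with no overlap, which is therefore a description. Its fall in shTMEM45A is a description too, as 0 libraries there passed the filter's count minimum.

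BCL2L2-PABPN1 joins BCL2L2, the anti-apoptotic protein BCL-w, and PABPN1, the nuclear poly(A)-binding protein. It had 15, 17 and 14 counts in NC, 15 to 21 in the shSHCBP1 libraries, 5, 0 and 0 in set 4, and 2, 1 and 6 in set 2. All shTMEM45A libraries lie below NC. The joined row fell by 2.66 (SE 0.55, adjusted p = 7.23e-05), BCL2L2 fell by 1.50 (SE 0.06) from 869 to 989 counts to 275 to 360, and PABPN1 rose by 0.97 (SE 0.05) from 2449 to 2535 counts to 4174 to 5112. In PPT2-EGFL8, which joins a lysosomal thioesterase and an EGF-like gene, the row had 13, 20 and 16 counts in NC, 2, 3 and 3 in set 4, and 16, 2 and 0 in set 2. One library of set 2 is thus within the range of NC. The joined row fell by 1.94 (SE 0.55, adjusted p = 0.00227), EGFL8 fell by 2.38 and PPT2 rose by 0.23 (adjusted p = 0.00779). BCL2L2-PABPN1 and PPT2-EGFL8 were named for the shifts of their ratios in shTMEM45A, -3.68 and -2.60, which are descriptions. So is the fall of BCL2L2-PABPN1, which had 0 shTMEM45A libraries past the filter's count minimum.

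PKD1P6-NPIPP1 joins a pseudogene of PKD1, the polycystin 1 gene, and a pseudogene of the NPIP family. The row had 98, 73 and 104 counts in NC, 77 to 103 in the shSHCBP1 libraries, 74, 41 and 41 in set 4, and 40, 33 and 32 in set 2. In counts, 1 library of set 4 thus reached the lowest of NC, and in CPM it lay just under it (5.08 against 5.11). PKD1P6 had 847, 714 and 747 counts in NC, 530 to 730 in the shSHCBP1 libraries and 17 to 30 in shTMEM45A. NPIPP1 had 21, 28 and 25 counts in NC, 28 to 44 in the shSHCBP1 libraries and 114 to 174 in shTMEM45A. The parts thus moved far apart, by -5.07 (SE 0.12) and 2.49 (SE 0.20), with the joined row between them at -1.05 (SE 0.19, edgeR adjusted p = 8.73e-06). Its ratio to the summed parts was higher by 1.24 in shTMEM45A (exact p = 0.0238). In shSHCBP1, PKD1P6 fell by 0.51 (adjusted p = 1.53e-05), and the joined row differed by -0.22 (adjusted p = 0.375).

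ZHX1-C8orf76 and ANKHD1-EIF4EBP3 rose in shTMEM45A. ZHX1 is a zinc finger and homeobox repressor, C8orf76 has no well-described role, and their joined row had 9, 5 and 9 counts in NC, 5 to 12 in the shSHCBP1 libraries, 32, 39 and 24 in set 4, and 27, 35 and 42 in set 2. All shTMEM45A libraries lie above all others. The row rose by 2.15 (SE 0.37, edgeR adjusted p = 6.52e-06) and C8orf76 by 1.76 (SE 0.14), while ZHX1 fell by 0.63 (SE 0.07). The ratio to the parts was higher by 2.13 (exact p = 0.0238). The joined row passed the filter through its shTMEM45A counts, with 0 NC libraries past the count minimum. Its change, ratio and p-values are therefore descriptions of a row kept for the group where it is high. In shSHCBP1, C8orf76 fell by 0.40 (adjusted p = 0.0398).

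ANKHD1 is an ankyrin-repeat scaffold protein, and EIF4EBP3 binds the cap-binding translation factor eIF4E. Their joined row had 11, 19 and 8 counts in NC, 8 to 23 in the shSHCBP1 libraries, 32, 47 and 25 in set 4, and 34, 54 and 28 in set 2. It rose by 1.57 in shTMEM45A (SE 0.37, edgeR adjusted p = 0.000308) and ANKHD1 by 0.59 (SE 0.15, adjusted p = 0.000836). EIF4EBP3 itself, too low to be tested, had 15 counts in the 3 NC libraries, 3 in those of set 4 and 9 in those of set 2. In set 4 that is a ratio to NC of 0.183, with a 95% counting interval of 0.034 to 0.648. The ratio to the parts was higher by 1.06 (exact p = 0.0476) with an overlap between the groups, and missed 0.05 with 2 in place of 0.5 as the added constant (0.95, exact p = 0.0714).

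P2RX5-TAX1BP3, which joins an ATP-gated channel gene and a PDZ-domain gene, had 1, 8 and 5 counts in NC, 6 to 12 in the shSHCBP1 libraries, 17, 16 and 9 in set 4, and 18, 15 and 8 in set 2. It rose by 1.59 in shTMEM45A (SE 0.51, adjusted p = 0.00611), a call that was lost without the first NC library (1.12, adjusted p = 0.0683). P2RX5 rose by 1.68 (adjusted p = 0.0262) and TAX1BP3 by 1.55 (adjusted p = 4.85e-07), and the ratio to the parts differed by 0.23 (exact p = 0.714). The joined row had 0 NC libraries past the filter's count minimum, and 2 in each shTMEM45A set and in shSHCBP1_2. It thus passed largely through groups where it is high, and its rise is a description.

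ARMCX5-GPRASP2, which joins 2 genes of the family of G protein-coupled receptor associated sorting proteins, had close to the same counts in every group. They were 65, 87 and 55 in NC, 91, 80 and 84 in shSHCBP1_1, 74, 81 and 90 in shSHCBP1_2, 74, 57 and 56 in set 4, and 91, 60 and 64 in set 2. All groups overlap NC. The log2 change was 0.11 in shSHCBP1 (SE 0.18, adjusted p = 0.691) and 0.01 in shTMEM45A (SE 0.18, adjusted p = 0.968). ARMCX5 rose by 0.41 (adjusted p = 0.00775) and GPRASP2 by 0.28 (adjusted p = 0.0369) in shSHCBP1, and neither passed the threshold in shTMEM45A. The ratio to the parts differed from NC by -0.21 in shSHCBP1 (exact p = 0.238) and by -0.12 in shTMEM45A (exact p = 0.667).

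Of the members not yet described, CKLF-CMTM1 and SMURF2P1-LRRC37BP1 were called lower over the mean of the shTMEM45A sets, by -2.22 (SE 0.72) and -2.80 (SE 0.78), and in set 2 but not in set 4. They and the other loci of this paragraph were named after their values were seen. CKLF-CMTM1 had 10, 8 and 3 counts in NC, 3, 5 and 0 in set 4, and 0, 2 and 0 in set 2, and its call was lost without the first NC library (adjusted p = 0.0515). SMURF2P1-LRRC37BP1 had 5, 13 and 6 counts in NC, 0, 3 and 5 in set 4, and 0, 0 and 1 in set 2. Within the range of NC counts lie the set 4 libraries of CKLF-CMTM1 with 3 and 5 counts, and that of SMURF2P1-LRRC37BP1 with 5. Neither row had a shTMEM45A library past the filter's count minimum, so both falls are descriptions. BLOC1S1-RDH5 joins a subunit of lysosome-positioning complexes and a retinol dehydrogenase. It had 13, 8 and 10 counts in NC, 18, 15 and 22 in set 4, and 22, 18 and 14 in set 2, a difference of 0.86 that missed the threshold (adjusted p = 0.0587). Its parts moved apart: BLOC1S1 rose by 2.28 (SE 0.10) from 122 to 149 counts to 472 to 794, and RDH5 had 38 counts in NC and 2 in each shTMEM45A set. SENP3-EIF4A1 joins a SUMO protease and the helicase of translation initiation. The row had 11, 6 and 4 counts in NC and 0 to 14 in shTMEM45A, with a change of -1.29 over both sets (adjusted p = 0.115) and a lower call in set 4 alone (-2.23, adjusted p = 0.0439). EIF4A1 had 1569, 1577 and 1627 counts in NC, 861 to 1249 in the shSHCBP1 libraries and 15 to 40 in shTMEM45A, a fall of 5.69 (SE 0.10), while SENP3 rose by 0.37 (SE 0.08).

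The remaining 7 members had no call in the comparisons of a target's mean with NC, or were not tested. ZNF670-ZNF695, ARHGAP19-SLIT1, FPGT-TNNI3K and TMEM56-RWDD3 differed in shTMEM45A by -0.85, -0.33, -0.18 and -1.40, with edgeR adjusted p of 0.114, 0.548, 0.834 and 0.0538. In set 2 alone, ZNF670-ZNF695 (-1.68, adjusted p = 0.0174) and TMEM56-RWDD3 (-1.83, adjusted p = 0.0475) were called lower. BOLA2-SMG1P6 had 6, 2 and 3 counts in NC and 0 to 6 in shTMEM45A, while SMG1P6, a pseudogene of SMG1, fell by 5.57 (SE 0.53). CENPS-CORT had 2, 5 and 8 counts in NC and 2 to 8 in shTMEM45A, while CENPS, a kinetochore protein gene, rose by 2.09 (SE 0.21) and CORT, the cortistatin gene, by 1.05 (SE 0.31). TEN1-CDK3 had 7, 4 and 1 counts in NC and 1 to 5 in shTMEM45A, and neither part was tested.

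Across members, readthrough changes were set beside those of the part genes as a description. The points share libraries and, through shared exons, possibly reads. In shTMEM45A, the log2 change of the readthrough row had the sign of the upstream part in 18 of 23 pairs (Spearman's rho 0.57, Pearson's r 0.56) and of the downstream part in 13 of 19 (rho 0.35, r 0.36). It lay below the change of the upstream part in 16 of 23 pairs, with a median difference of -1.17, and below that of the downstream part in 11 of 19, with a median difference of -0.23. In shSHCBP1 the sign was shared with the upstream part in 15 of 23 pairs (rho 0.34, r 0.48) and with the downstream part in 12 of 19 (rho 0.22, r 0.15). Across libraries, the median member's share of its locus was 8.64% ± 0.56 (SD, n = 3) in NC, 8.74% ± 0.83 in shSHCBP1_1, 9.59% ± 0.35 in shSHCBP1_2, 6.32% ± 2.41 in set 4 and 3.89% ± 0.56 in set 2. One library of set 4, at 9.09%, lies within the range of NC, 8.31% to 9.29%.

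**Figure D4:**
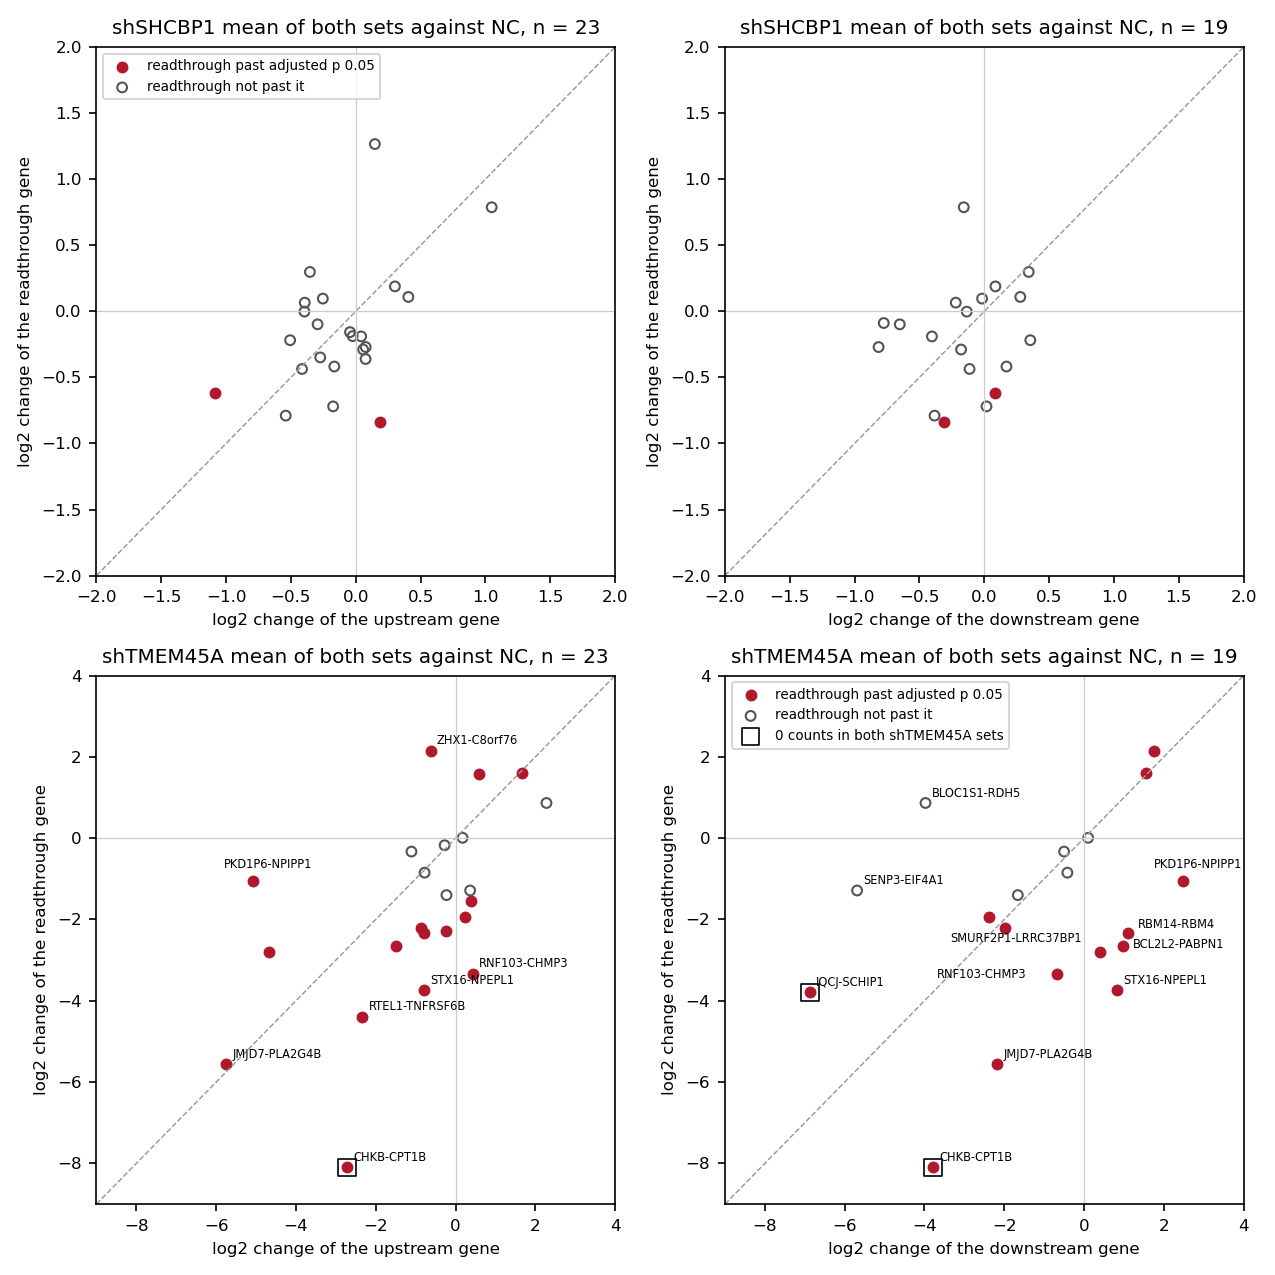
Log2 change of the readthrough gene (y axis) against that of its upstream or downstream part gene (x axis), averaged over the 2 sets of each target and set against NC, one point per readthrough gene, with the dashed line marking equal change. In the shTMEM45A panels most points lie under the line, with PKD1P6-NPIPP1 above it against PKD1P6 and below it against NPIPP1; squares mark genes at 0 counts in both shTMEM45A sets, whose fitted change is no bound.

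The genes that end transcripts were listed by role: 32 genes of cleavage, polyadenylation and termination. In shTMEM45A 13 were called higher and 15 lower over the mean of both sets, with a median log2 change of -0.11. These shares, 40.6% and 46.9%, are near the background of 37.3% and 41.3%. CLP1, a cleavage factor subunit, rose by 1.75 (SE 0.11) and SSU72, a phosphatase of the polymerase's tail, by 1.32 (SE 0.05). SCAF4, which prevents early ends of transcripts, fell by 1.23 (SE 0.05) and PCF11, a termination factor, by 1.01 (SE 0.07), all with adjusted p under the threshold in both sets. In shSHCBP1, 7 were higher (21.9%, background 15.2%) and 9 lower (28.1%, background 15.9%), with a median of 0.05. That background depends on level: it was 10.4% higher and 5% lower within the members' range of levels. No background at the listed genes' own levels was taken, so nothing particular to the list is read from these counts. RPRD2, which binds the polymerase's tail, rose by 0.70 (SE 0.08) and CSTF2T, a cleavage stimulation factor, by 0.65 (SE 0.10), while CPSF1, the largest subunit of the cleavage and polyadenylation factor, fell by 0.38 (SE 0.04) and its scaffold SYMPK by 0.29 (SE 0.06).

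Of 22 genes of nonsense-mediated decay, 7 were called higher and 13 lower in shTMEM45A, with a median log2 change of -0.35. These are 31.8% and 59.1%, beside backgrounds of 37.3% and 41.3%. SMG6, the endonuclease of the pathway, fell by 3.82 (SE 0.13) and SMG1, its kinase, by 1.66 (SE 0.05), and both paralogs of an exon junction subunit, MAGOH and MAGOHB, rose by 1.76 (SE 0.07) and 1.38 (SE 0.09). In shSHCBP1, 6 were higher (27.3%, background 15.2%) and 7 lower (31.8%, background 15.9%), with a median of -0.08. MAGOHB rose by 0.61 (SE 0.09), while SMG1 fell by 0.38 (SE 0.05) and RNPS1, an exon junction factor, by 0.34 (SE 0.03). As for the transcript end genes, no background at these genes' own levels was taken, so nothing particular to the list is read from the counts. Both lists moved in either direction in both targets, and their part in the readthrough levels was not tested.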

How the data were processed

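The authors deposited 2 tables of raw counts per gene symbol, of 58735 rows each, and whole-number counts are the only unit used. Poly(A) libraries were made with a kit that does not mark strand, per the labels' protocols. The sources used here do not name the aligner, counter or annotation. The labels give mouse as organism and the submitters' processing notes name the build mm10, while the symbols are human, so no reference sequence, position or gene length was used. Rows of the 200 names that occur more than once (1768 rows) were left out, and 0 sample columns were unused. The columns of set 4 match no labelled library singly and were taken as the 3 libraries of the TMEM45A set left over, labelled set 1.

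The members and lists were chosen with earlier results of these data known. Counts of all 15 libraries were fitted in edgeR 4.0.16 (R 4.3.3) with TMM factors, filterByExpr (count minimum 10, total minimum 15), a quasi-likelihood F test and Benjamini-Hochberg adjustment over 19051 genes at 0.05. Log2 changes are edgeR's, and each SE is the size of the change over sqrt(F). Under total counts in place of TMM the median of all genes lay at 0.16 for shSHCBP1 and -0.24 for shTMEM45A, beside 0.01 and -0.05. Named members were the 12 with most counts, the 6 largest rises and 6 largest falls per target called in both sets, up to 3 each way between sets, and up to 5 with the largest shift of the ratio to the parts. List genes were up to 2 each way per target. Permutation tests and binomial intervals used scipy 1.17.1. PCR reads without molecular identifiers are not independent molecules, so intervals and floors cover counting error only. The edgeR script was tested on data simulated after NC and shSHCBP1_1 only. Changes were placed in genes above the level of the median member, so lower rows were not tried. Alternatives were DESeq2 1.42.0, other scalings, filters and samples, leaving out each library, and a replicate block. Of 5 fibroblast markers, 1 was over 1 CPM in each group, as of 5 immune markers, and 0 of 3 endothelial markers.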

Additional observations from a re-analysis of the deposited data

Results flagged for a closer look

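No member differed between the sets of one target, but 5 part genes differed between the shTMEM45A sets, which share a table and whose comparison does not use NC. In the edgeR test of set 2 against set 4, SMURF2P1 was lower by -3.12 on the log2 scale, with 8, 8 and 4 counts in set 4 and 0, 0 and 2 in set 2. SLIT1 was lower by -0.57 and ARHGAP19 by -0.34, the 2 parts of 1 locus. ZHX1 was higher by 0.44 and BLOC1S1 by 0.32. All 5 passed an adjusted p of 0.05.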

How the results depend on the processing

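No result past a test's threshold changed sign, and the median share in shSHCBP1, which has no test, did. Calls of members in shSHCBP1_1, 1 in the fit reported, ranged from 0 to 2 on leaving out each library and were 4 with only these groups in the fit, 2 with DESeq2 and 2 with a replicate block. In shSHCBP1_2, 2 calls became 0 to 4, 5 and 4 under the first 3 of these. Over the mean of both sets, 2 calls became 1 to 4 on leaving out each library and 7 with only these groups in the fit. Set 2 against set 4 gave 0 to 1. With a count minimum of 30, 12 members were tested, and 11 were called in set 4, in set 2 and over their mean, in place of 17, 19 and 18. The other results kept their calls within 1.5 times. Replicate numbers did not pair the libraries: deviations of same-numbered libraries correlated at -0.04 to 0.04. The replicate block left the other counts within 1.5 times, with 2 for shSHCBP1_2, 2 for both sets, 0 between the sets and 18 for set 2. It could not be fitted for set 4, whose columns carry no number of the labels.

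The median member's share of its locus differed from NC by 0.53 percentage points in shSHCBP1, and changed sign over the upstream part alone (-3.83) and in the 10 members with 300 or more counts (-0.98), with 1.74 over the downstream part alone. In shTMEM45A it was -3.53, and -8.24 and -16.3 over the upstream part alone and in those 10 members. In these, rho of readthrough and part changes was 0.20 upstream and 0.31 downstream in shSHCBP1, and 0.60 and 0.66 in shTMEM45A. Chosen after seeing the data, a constant of 2 in the ratios moved CHKB-CPT1B from -2.52 (exact p = 0.0238) to -0.86 (exact p = 0.167), and leaving out the second NC library moved ANKHD1-EIF4EBP3 to 1.46 and ZHX1-C8orf76 to 1.83, the third ANKHD1-EIF4EBP3 to 0.71. For these results the cause was not tested. Members under 10 counts a library limit what can be seen.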
